A study of Mus musculus with 6 samples.

Results

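A set of 9 genes of bone morphogenetic protein (BMP) signalling was followed in the ATAC-seq peak lists of adult mouse neural stem cell (NSC) cultures: the ligands *Bmp2*, *Bmp4* and *Bmp6*, the receptors *Bmpr1a*, *Bmpr1b* and *Bmpr2*, the inhibitory Smads *Smad6* and *Smad7*, and the secreted antagonist *Nog*. Every peak that overlapped the body of 1 of these 9 genes, or the 50 kb on either side of it, was taken (GENCODE M21 genes, GRCm38). Merging overlapping peaks of the 6 libraries gave 119 regions in the 9 windows, of 119719 regions in all. ATAC-seq marks DNA that a transposase can reach, so a peak stands for a stretch of accessible chromatin.

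The cultures came from the subependymal zone (SEZ) of *Srr2* del/del mice aged 10 weeks, in which CRISPR-Cas9 removed the *Sox2* enhancer *Srr2*. The deletion is shared by all 6 libraries, and wild-type cultures were not analysed here. In the 3 PROLIF libraries (replicates 1, 2 and 4) the cells were proliferating at 2 days in vitro (DIV), with mitogen still present. For this stage the paper names fibroblast growth factor (FGF) in the medium. Epidermal growth factor is named, beside FGF, for the earlier neurosphere medium. In the 3 DIFF libraries (replicates 1, 2 and 4) mitogens had been withdrawn after 2 DIV, and the cells had spent 1 further day in medium with 2% fetal bovine serum. Each library was made from 50000 cells of a mixed culture, so more cells of one kind and more open chromatin per cell cannot be told apart. Nothing in the labels ties replicates to separate mice, so a p-value measures the spread between these libraries. The lists held from 59792 to 87728 peaks on the assembled chromosomes. The background, which stands for depth, was 2.85 to 3.63 reads in 5 libraries and 6.01 reads in DIFF replicate 4. Of the marker genes looked up, 6 of 6 neural stem and progenitor genes had a promoter peak in all 6 libraries, against 1 of 2 neuronal, 1 of 3 oligodendrocyte, 2 of 4 microglial and 0 of 3 endothelial genes. *Dcx*, *Sox10*, *Cx3cr1*, *Cdh5* and *Cldn5* had none in any library.

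BMP ligands are secreted proteins that bring together type I receptors (*Bmpr1a*, *Bmpr1b*) and the type II receptor *Bmpr2*, which activates the type I partner. The receptors phosphorylate SMAD1, SMAD5 and SMAD9, which enter the nucleus with SMAD4 and switch on targets such as the Id genes. *Smad6* and *Smad7* are themselves induced by the pathway and hold it back inside the cell, while Noggin (*Nog*) binds the ligands outside it. In the adult SEZ, BMP signalling is known for favouring quiescence and glial fate, and Noggin for favouring neurogenesis.

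All 9 genes had a peak within 3 kb of an annotated start site in all 6 libraries, where 64.4% of 21938 protein-coding genes did. To compare libraries, each peak was given its percentile in its own list, ranked by the caller's p (100 is the strongest). By the median over the 6 libraries, the strongest peaks within 3 kb of a start site ran in the order *Bmpr2* (93.0), *Bmpr1b* (91.2), *Smad7* (86.5), *Bmpr1a* (85.3), *Bmp2* (79.2), *Smad6* (71.5), *Nog* (69.9), *Bmp4* (58.5) and *Bmp6* (58.2). The strongest peak lay in the same region, called the main promoter region below, in all 6 libraries for each gene but *Bmp6*, where 2 libraries had it in another region. The 3 receptors thus stood above the 3 ligands, while neighbours in this order overlapped in their ranges over libraries. Between the states, 2 promoters did not overlap. *Smad6* stood higher in every DIFF library and *Bmp4* in every PROLIF library. Over the 14126 genes with a promoter peak in all 6 libraries, the same order was seen for 26.0% towards DIFF and 4.79% towards PROLIF. With all lists cut to the shortest, *Bmp6* (DIFF above) and *Bmpr1b* (PROLIF above) also ceased to overlap.

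**Figure D1:**
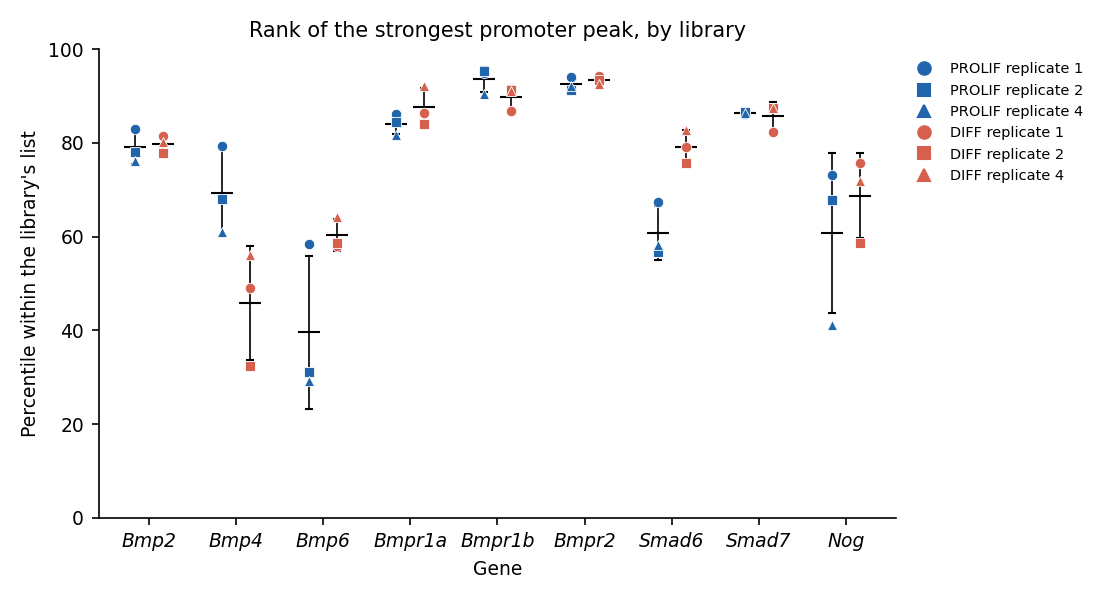
Percentile of each gene's strongest peak within 3 kb of a start site in the library's own peak list (y axis, 0 to 100), for the 9 genes (x axis). Points are single libraries, black bars the mean ± SD of 3 libraries. Smad6 stood at 56.6 to 67.4 in PROLIF and 75.7 to 82.7 in DIFF, and Bmp4 stood at 60.9 to 79.3 in PROLIF and 32.5 to 56.1 in DIFF.

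Around the genes, more regions held a peak after mitogen withdrawal. The PROLIF libraries had a peak in 74, 62 and 55 of the 119 regions and the DIFF libraries in 83, 76 and 96, so the states did not overlap. This rested on *Smad6*, whose window gave 8 of the mean difference of 21.3 regions. The totals of the other windows overlapped between the states, also with all lists cut to the shortest. The mean was 63.7 ± 9.61 regions in PROLIF and 85 ± 10.1 in DIFF (SD, n = 3 each; exact permutation test, two-sided, p = 0.1, the smallest that 3 against 3 can give). The gap was also there per 1000 peaks of each list, at 0.896, 0.933 and 0.920 regions in PROLIF and 1.17, 1.08 and 1.09 in DIFF. With all lists cut to the length of the shortest, the libraries had 62, 59 and 55 regions in PROLIF and 70, 68 and 66 in DIFF, a difference of 9.33 (exact permutation p = 0.1). With the strongest 20000 peaks of each the difference was 2.33 and the states overlapped (exact permutation p = 0.3). The peaks covered 37, 32.0 and 25.7 kb in PROLIF and 37.2, 37.1 and 41.8 kb in DIFF (exact permutation p = 0.1). The difference in covered length was 7.10 kb, and 4.16 kb without PROLIF replicate 4. Without DIFF replicate 4, the deepest library, the difference in occupied regions was 16.8.

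The added regions were unevenly spread over the genes. The *Smad6*, *Bmpr2* and *Nog* windows each held more regions in every DIFF library than in any PROLIF library, an order seen in 8.25% of protein-coding windows (and in 1.53% the other way round). *Smad6* had 7, 3 and 7 occupied regions in PROLIF and 14, 10 and 17 in DIFF. *Bmpr2* had 8, 6 and 7, then 11, 10 and 13, and *Nog* 3, 3 and 2, then 4, 4 and 5. The exact permutation p was 0.1 for each of the 3. With lists of equal length *Smad6* and *Nog* still did not overlap between the states, whereas *Bmpr2* did (6, 5 and 7, then 10, 6 and 8). Among the strongest 20000 peaks *Smad6* had 0 regions in each PROLIF library and 4, 2 and 4 in DIFF, and *Bmpr1b* had more in PROLIF (7, 6 and 8, then 4, 5 and 4). The other 6 windows overlapped between the states. *Bmpr1b*, the longest of the genes, had the most regions (25) with overlapping counts of 19, 19 and 16 in PROLIF and 19, 18 and 22 in DIFF.

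**Figure D2:**
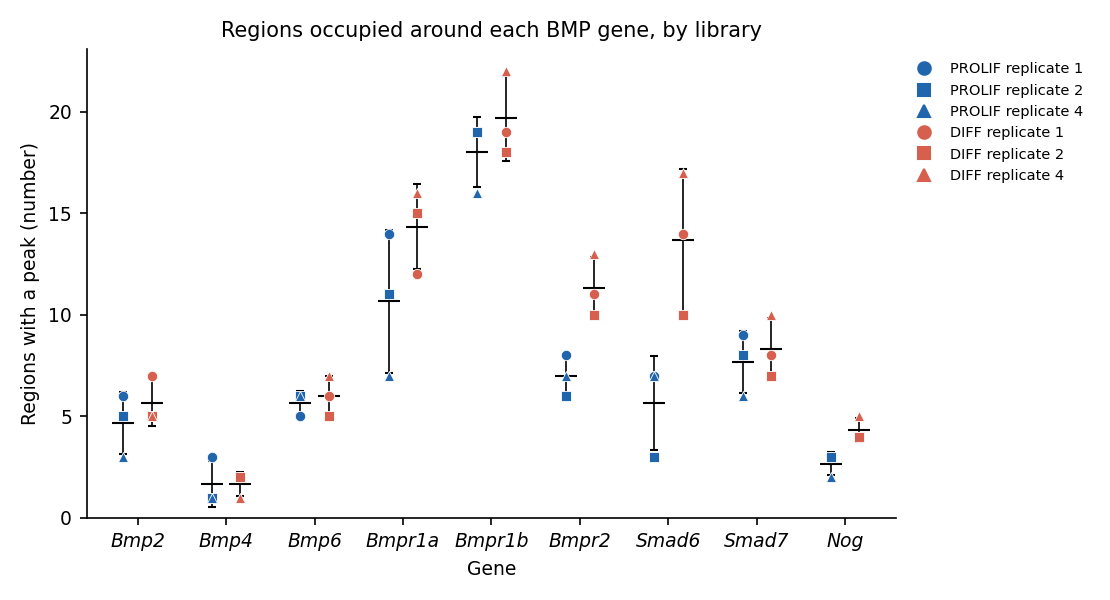
Number of merged regions with a peak (y axis) in the window of each gene (x axis), by library. Points are single libraries, black bars the mean ± SD of 3. Smad6 goes from 3 to 7 regions in PROLIF to 10 to 17 in DIFF, while the ranges of Bmp2, Bmp4, Bmp6, Bmpr1a, Bmpr1b and Smad7 overlap.

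Of the 119 regions, 41 (34.5%) held a peak in all 6 libraries, near the 33.5% of all merged regions. Another 9 (7.56%) were DIFF-only, with a peak in every DIFF library and none in PROLIF, where 3.48% of all regions were. The reverse, PROLIF-only, held for 3 (2.52%, against 1.79% of all). All 9 DIFF-only regions lay over 3 kb from any start site, as did 80.3% of all DIFF-only regions. They were weak to middling peaks, with median percentiles from 18.9 to 49.3, where the 41 shared regions ran from 25.6 to 98.4. A region can lack a peak because its signal missed the caller's threshold, so the DIFF-only class depends on the lists: 5 of the 9 were still DIFF-only with lists of equal length, and none with the strongest 20000 peaks alone. Without DIFF replicate 1 the count was 14. *Smad6* held 4 of the 9, the highest count among the genes and a number reached or passed by 0.406% of protein-coding windows. That share takes no account of how many regions a window holds. The *Smad6* window was dense, with 20 regions (11.8 per 100 kb, where the upper quartile of all protein-coding windows was 9.37). Counted over all patterns, 55 of the 119 regions (46.2%) had a peak in more DIFF than PROLIF libraries and 13 (10.9%) in fewer, beside 34.8% and 25.1% of all merged regions.

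Among the ligands, the *Bmp4* promoter became less prominent and those of *Bmp2* and *Bmp6* did not pass the test. Fold enrichment, the caller's ratio of reads at the peak summit to the local background, with 1 added to both, was compared by limma over the 40102 regions found in all 6 libraries, of which 5.93% were higher in DIFF and 7.73% lower (adjusted p under 0.05). The main *Bmp4* promoter region (chr14:46387040-46388084, over a start site inside the gene, in exon and UTR sequence) had fold enrichments of 9.05, 6.98 and 5.97 in PROLIF and 4.43, 4.33 and 4.59 in DIFF. Every DIFF value lay below every PROLIF value, with a log2 difference of -0.61 ± 0.12 (SE; limma, adjusted p = 0.0103). Without DIFF replicate 2 the adjusted p was 0.0519. Fold and p together also give the number of reads at the summit, and these were 64, 40 and 31 in PROLIF and 28, 20 and 39 in DIFF. On summit reads, a scale added after the values were seen, the difference was -0.91 (limma, adjusted p = 0.00434).

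*Bmp2* held its promoter peak (chr2:133551955-133553403) at fold enrichments of 8.89, 7.39 and 7.23 in PROLIF and 7.92, 8.48 and 7.52 in DIFF. The states overlapped, and the log2 difference was 0.09 ± 0.12. An intergenic region 26.1 kb from the *Bmp2* start, picked after its values were seen, had 11 and 13 summit reads in PROLIF replicates 1 and 2, no peak in replicate 4, and 28, 23 and 50 in DIFF. *Bmp6* had adjacent regions at its start. The stronger, 2075 bp upstream (chr13:38342699-38343032), had 33, 20 and 17 summit reads in PROLIF and 32, 32 and 51 in DIFF, which overlap. The one over the start site (chr13:38344970-38345463) had 22, 16 and 17 summit reads in PROLIF and 26, 34 and 44 in DIFF. All DIFF libraries were higher, which passed on summit reads (log2 0.61 ± 0.16, limma adjusted p = 0.0185) and not on fold enrichment (0.43 ± 0.13, adjusted p = 0.0640). On reads, leaving out PROLIF replicate 2, DIFF replicate 2 or DIFF replicate 4 raised the adjusted p to 0.0601, 0.0702 and 0.0506.

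The receptor promoters were among the stronger regions and did not pass the test. For *Bmpr2* (chr1:59762518-59764218) fold enrichment was 12.8, 10.2 and 10.6 in PROLIF and 10.2, 12.01 and 9.87 in DIFF. For *Bmpr1a* (chr14:34501971-34503433) it was 10.0, 8.85 and 8.36, then 8.16, 8.55 and 10.1, and for the main start of *Bmpr1b* (chr3:142168629-142169659) 15.0, 14.1 and 11.3, then 10.4, 13.3 and 11.8. All 3 overlapped between the states, with log2 differences of -0.02 ± 0.12, 0.02 ± 0.13 and -0.16 ± 0.12. On summit reads the main start of *Bmpr1b* had a log2 difference of -0.44 ± 0.16 (limma, adjusted p = 0.0652). The regions of the receptor windows that passed the threshold lay away from these main promoter regions.

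Inside *Bmpr1b*, a pair of regions 1168 bp apart went in opposite directions. They sit at an internal start site, 236.9 kb downstream of the main promoter region. The region over that start site (chr3:141931327-141931773) fell, from fold enrichments of 8.04, 6.70 and 7.10 to 5.31, 4.82 and 4.41. Its log2 difference was -0.51 ± 0.14 (limma, adjusted p = 0.0465). The upstream neighbour, in an intron (chr3:141932942-141933715), rose from 4.94, 4.18 and 3.94 to 5.65, 6.83 and 7.29, by 0.68 ± 0.12 (limma, adjusted p = 0.00684). No library overlapped between the states at either region. The call on the first was the less steady, since leaving out any single library other than DIFF replicate 1 raised its adjusted p to between 0.0647 and 0.161. The call on the second held with each library left out. Summit reads gave the same directions, 79, 47 and 46 then 46, 41 and 61 for the first, and 80, 54 and 41 then 76, 95 and 164 for the second.

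A further region of *Bmpr1b*, 2.26 kb from an internal start site (chr3:141984523-141984924, intron), was first among the PROLIF-only regions when ordered by the lowest of their 3 percentiles. These were 66.1, 50.7 and 46.7, at 38, 23 and 20 summit reads. Its sequence is given, with that of the rising neighbour above, which had the smallest adjusted p of the member regions past the limma threshold on fold enrichment. Each run is 200 bases around the summit on the plus strand of GRCm38 (NCBI RefSeq), with matches to the motif letters searched for further on in capitals.
Bmpr1b, PROLIF-only, chr3:141984564-141984763: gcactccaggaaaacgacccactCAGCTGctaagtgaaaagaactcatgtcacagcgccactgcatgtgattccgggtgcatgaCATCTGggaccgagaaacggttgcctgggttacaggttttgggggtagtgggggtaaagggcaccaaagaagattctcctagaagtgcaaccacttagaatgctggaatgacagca
Bmpr1b, higher in DIFF, chr3:141933100-141933299: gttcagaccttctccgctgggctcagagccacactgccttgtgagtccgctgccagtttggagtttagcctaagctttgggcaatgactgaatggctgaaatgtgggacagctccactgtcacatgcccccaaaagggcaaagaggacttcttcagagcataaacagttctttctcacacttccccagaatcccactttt
The first holds an E-box CAGCTG and an E-box CAGATG (read on the other strand), and the second holds none of the letters. An intronic region 9789 bp from an internal start of the gene, picked after its values were seen, had 51, 26 and 30 summit reads in PROLIF and, in DIFF, a peak of 16 reads in replicate 1 alone. The DIFF-only region of *Bmpr1b* (chr3:142033978-142034161, intron) was narrow and weak, with 19, 14 and 24 reads.

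In the *Bmpr1a* window the region that rose is closer to another gene. It lies 1.81 kb from a start site of *Sncg* (chr14:34372626-34372978) and had fold enrichments of 4.03, 4.06 and 3.38 in PROLIF and 5.61, 5.05 and 5.56 in DIFF (log2 0.60 ± 0.14, limma adjusted p = 0.0201). Without PROLIF replicate 1, PROLIF replicate 4, DIFF replicate 1 or DIFF replicate 4 in turn, its adjusted p was 0.0588 to 0.0827. Within *Bmpr1a* itself, an intronic region 6215 bp from a start site, picked after its values were seen, had a peak of 11 reads in PROLIF replicate 2 alone and 44, 38 and 64 reads in DIFF. *Bmpr2* held DIFF-only regions on both sides of the gene (chr1:59730701-59731005 and chr1:59900624-59901122), at 12 to 28 summit reads. Both are closer to a start site of another gene, *Snord11* and *Fam117b*.

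*Smad6*, the inhibitory Smad that acts mainly on the BMP branch, had the largest difference in occupied regions of the 9 genes. Of the 20 regions in its window, 14 had a peak in more DIFF than PROLIF libraries, 4 in as many and 2 in fewer. No PROLIF peak at all was found in 10 of them, nor in 23.5% of all merged regions. Some of the 10 had a peak in DIFF replicate 4 alone, the deepest library, at 17 to 22 reads. Peaks covered 2.20, 1.296 and 1.53 kb of the window in PROLIF and 5.36, 3.27 and 5.65 kb in DIFF. The promoter region (chr9:64021736-64023298) had 41, 30 and 29 summit reads in PROLIF and 73, 64 and 108 in DIFF. An intronic region 53.2 kb inside the gene (chr9:63968559-63969129) lies closer to a start of *Gm36033* (31438 bp) than to one of *Smad6* (47858 bp). It had 29, 24 and 23 summit reads, then 62, 44 and 84. Both were higher in every DIFF library, by log2 0.96 ± 0.15 and 0.98 ± 0.17 (limma on summit reads, adjusted p = 0.00126 and 0.00274), and stayed past the threshold with any 1 library left out. On that scale 11.3% of 39493 regions were higher in DIFF and 12.3% lower, and the scale was added after the values were seen.

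The same regions barely moved on fold enrichment. The promoter had 7.59, 5.68 and 5.72 in PROLIF and 5.86, 6.85 and 6.56 in DIFF (log2 0.11 ± 0.11, limma adjusted p = 0.609), and the intronic region 0.21 ± 0.12 (adjusted p = 0.317). The local background, by which the caller divides, was higher in DIFF too. At the promoter it was 4.53, 4.46 and 4.25 reads in PROLIF and 11.6, 8.48 and 15.6 in DIFF. Relative to the background of the whole library that is 1.53, 1.52 and 1.49 times in PROLIF and 3.20, 2.87 and 2.60 times in DIFF. At the intronic region the local background equalled that of the library in all PROLIF libraries and was 2.07, 1.73 and 1.76 times it in DIFF. Of the 41 member regions found in all 6 libraries, these 2 were the ones whose relative local background was higher in every DIFF library (by over 2%), and 1 was lower in every DIFF library. Over all 39493 regions the shares were 8.96% and 10.6%. In DIFF replicate 1, DIFF-only neighbours of the intronic region had nearly its local background (7.52 and 7.55 reads beside 7.51). The local background thus spans several peaks, and whether reads rose outside the peaks was not tested.

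**Figure D3:**
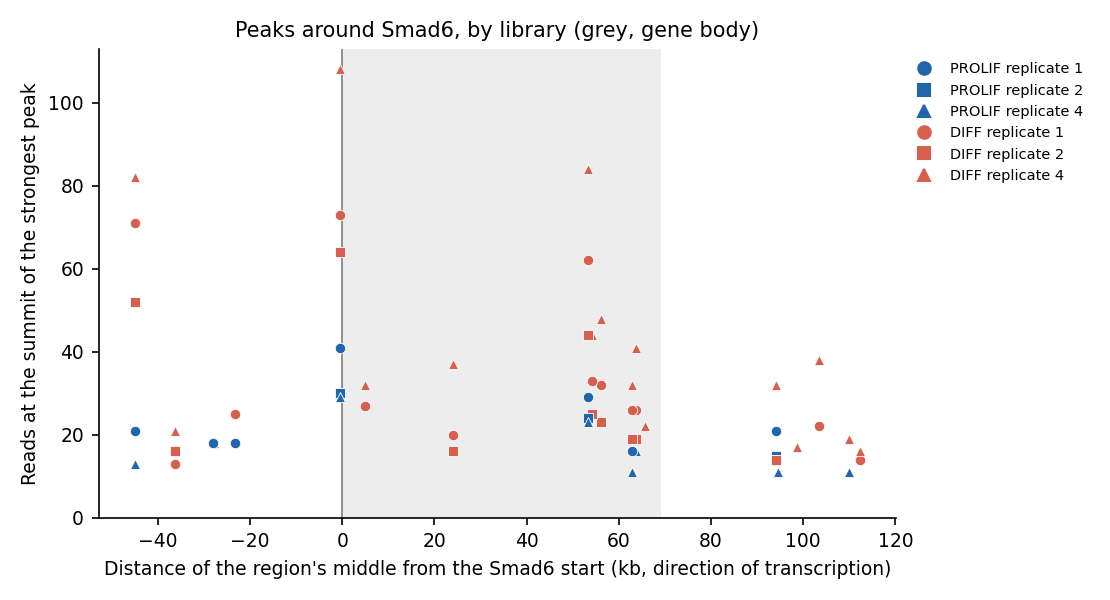
Reads at the summit of the strongest peak (y axis) for each region of the Smad6 window, against the distance of the region's middle from the gene start in kb, in the direction of transcription (x axis). Grey marks the gene body, each point is 1 library, and a missing point means no peak; DIFF points reach 108 reads at the start and 84 at the intronic region 53.2 kb inside the gene, where PROLIF points stay at or under 41 and 29. Reads are not scaled for depth, and the 108 and 84 are from DIFF replicate 4, the deepest library. Over the library background the highest values were 21.6 in DIFF and 13.8 in PROLIF at the start, and 17.1 and 9.76 at the intronic region.

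DIFF-only regions accompanied these peaks. One lay 507 bp from the intronic region (chr9:63967743-63968051) with 33, 25 and 44 summit reads, another at chr9:63965671-63966040 had 32, 23 and 48, and the region 24.0 kb inside the gene (chr9:63997552-63998531) had 20, 16 and 37. All 3 are intronic. The first lies closer to a start of *Gm36033* (30622 bp) than to one of *Smad6* (48936 bp), and so does the second (28550 against 50947 bp). The fourth, intergenic, 36.2 kb upstream of the nearest *Smad6* start and closer to a start of *1110036E04Rik* (chr9:64058278-64058479), was weak at 13, 16 and 21 reads. A region at chr9:64066715-64067380, picked after its values were seen, missed the class because of weak PROLIF peaks: 21 and 13 reads in replicates 1 and 4 and none in replicate 2, against 71, 52 and 82 in DIFF. That region is closer to a start of *Scarletltr* (13381 bp) than to one of *Smad6* (44656 bp). The 3 intronic sequences are shown as the DIFF-only regions whose lowest percentile was highest, 200 bases around the summit, on the plus strand.
Smad6, DIFF-only, chr9:63967820-63968019: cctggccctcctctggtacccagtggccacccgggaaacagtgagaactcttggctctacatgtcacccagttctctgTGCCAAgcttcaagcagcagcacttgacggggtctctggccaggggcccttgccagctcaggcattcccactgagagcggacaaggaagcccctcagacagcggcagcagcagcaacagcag
Smad6, DIFF-only, chr9:63965786-63965985: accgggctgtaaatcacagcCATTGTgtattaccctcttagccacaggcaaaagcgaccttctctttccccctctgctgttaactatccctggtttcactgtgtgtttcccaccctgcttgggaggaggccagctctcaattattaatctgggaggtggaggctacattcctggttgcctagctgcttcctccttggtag
Smad6, DIFF-only, chr9:63998200-63998399: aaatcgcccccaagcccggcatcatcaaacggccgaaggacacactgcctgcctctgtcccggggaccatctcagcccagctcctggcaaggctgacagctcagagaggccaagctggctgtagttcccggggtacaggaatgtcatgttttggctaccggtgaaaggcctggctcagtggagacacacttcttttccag
The capitals mark an NFI match in the first and a SOX match in the second, and the third holds none of the letters searched.

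*Nog*, whose product traps BMP ligands outside the cell, kept its promoter peak (chr11:89301860-89303232) at fold enrichments of 6.19, 5.48 and 3.79 in PROLIF and 5.20, 4.42 and 4.49 in DIFF, which overlap (log2 0.02 ± 0.16). A second region 3.60 kb from the start was also in all 6 libraries and did not pass the test. Around *Nog*, an intergenic DIFF-only region 16.0 kb upstream (chr11:89318381-89318840) had 16, 19 and 29 summit reads. A start of *Gm2018* is slightly nearer to it (15658 against 16049 bp). The region is shown because it ranked 4 among the DIFF-only regions when ordered by their lowest percentile. Its 200 bases hold 3 matches to the letters GGCGCC or GGCTCC, in capitals.
Nog, DIFF-only, chr11:89318372-89318571: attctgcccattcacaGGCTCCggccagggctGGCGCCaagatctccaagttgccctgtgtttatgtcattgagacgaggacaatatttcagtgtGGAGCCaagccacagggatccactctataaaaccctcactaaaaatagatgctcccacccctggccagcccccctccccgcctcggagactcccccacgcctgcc

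Those letters are the ones bound by SMAD1 or SMAD5 with SMAD4. They were searched on both strands from 100 bases before to 100 after the summit of each region's best-ranked peak, with the letters of other factors beside them. GGCGCC or GGCTCC stood in 41 of the 119 regions (34.5%), against 23.3% of all merged regions. In regions found in all 6 libraries the share was 19 of 41 (46.3%) around these genes and 32.4% in all the genome's regions of that kind, in DIFF-only regions 2 of 9 and 22.8%, and in PROLIF-only regions 1 of 3 and 16.3%. The *Smad6* window had them in 11 of 20 regions, of which 1 was DIFF-only. The SMAD3 and SMAD4 letters GTCTAGAC were in none of the 119 and in 0.206% of all. The NFI letters TTGGCA were in 29 (24.4%, against 18.3%), SOX letters (ACAAAG or ACAATG) in 28 (23.5%, against 29.1%), an E-box CAGCTG in 23 (19.3%, against 19.6%), an E-box CAGATG in 15 (12.6%, against 17.3%) and AP-1 letters (TGACTCA or TGAGTCA) in 3 (2.52%, against 5.76%). These are matches of letters, not bound sites, and the short ones depend on base composition.

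*Smad7*, which also restrains the TGF-beta branch, had 1 region that fell, and its promoter did not pass the test. Its promoter region (chr18:75366426-75367892) had fold enrichments of 8.48, 7.80 and 7.996 in PROLIF and 6.12, 8.65 and 6.76 in DIFF (log2 -0.12 ± 0.14), and its percentiles overlapped. A region 30.6 kb from the nearest start, downstream of the gene (chr18:75405483-75406016, intergenic), fell most of the 41: fold enrichment went from 9.94, 6.85 and 7.54 to 3.02, 4.55 and 4.99, by a log2 difference of -0.91 ± 0.18 (limma, adjusted p = 0.0114). The call held with each library left out. *Smad7* also held PROLIF-only regions, one 707 bp from an internal start (37, 24 and 25 summit reads) and one 47.6 kb upstream (19, 18 and 17). The upstream one is closer to a start of *2010010A06Rik* (22220 bp). The DIFF-only region of *Smad7*, in an intron, had 15, 13 and 25 reads.

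**Figure D4:**
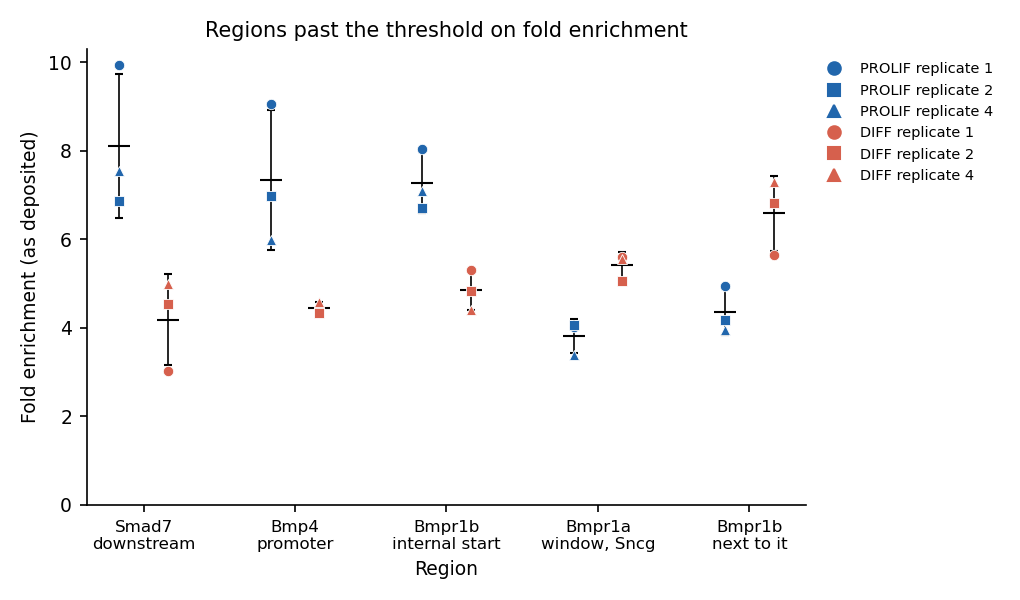
Fold enrichment as deposited (y axis) at the 5 regions past the limma threshold (x axis), by library. Points are single libraries, black bars the mean ± SD of 3; in each region the PROLIF and DIFF points do not overlap, with the Smad7, Bmp4 and Bmpr1b internal start regions lower in DIFF and the Sncg-side Bmpr1a and neighbouring Bmpr1b regions higher.

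In all, 2 of the 41 member regions were higher in DIFF on fold enrichment and 3 lower, beside background shares of 5.93% and 7.73%. The median log2 difference was 0.01 over these 41 and 0.03 over all 40102. On summit reads 5 were higher and 5 lower, beside 11.3% and 12.3%. The 5 regions past the threshold on fold enrichment also passed on reads, and reads added both *Smad6* regions, the *Bmp6* start and a pair of *Bmpr1b* window regions. On reads, the *Bmpr1b* internal start region (adjusted p = 0.0437) had 0.0952 to 0.146 without PROLIF replicate 1 or 4 or DIFF replicate 2 or 4. Its neighbour (adjusted p = 0.0249) had 0.0618 to 0.104 without PROLIF replicate 2 or 4 or DIFF replicate 2 or 4, and the region near *Sncg* (adjusted p = 0.0143) had 0.0502 and 0.0614 without DIFF replicate 1 or 4, all by limma. Of the pair that reads added, the one in an exon of *Bmpr1b* lost its call without PROLIF replicate 1, DIFF replicate 1 or DIFF replicate 4 (adjusted p of 0.0586 to 0.0762), and the one in an intron of *Unc5c* without PROLIF replicate 1 or 2 or DIFF replicate 2 or 4 (0.115 to 0.164). With percentiles turned into normal scores in place of fold enrichment, the region near *Sncg* was the only one of the 5 still past the threshold. In a simulated table with 1 noise level for all regions and 100 planted changes of each size, the fit recovered 55% of log2 changes of 1 and 2% of those of 0.5. The real fit called many more regions than that one, and passed a member region at a log2 difference of -0.51. The simulated shares therefore do not measure the reach of the real fit.

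**Figure D5:**
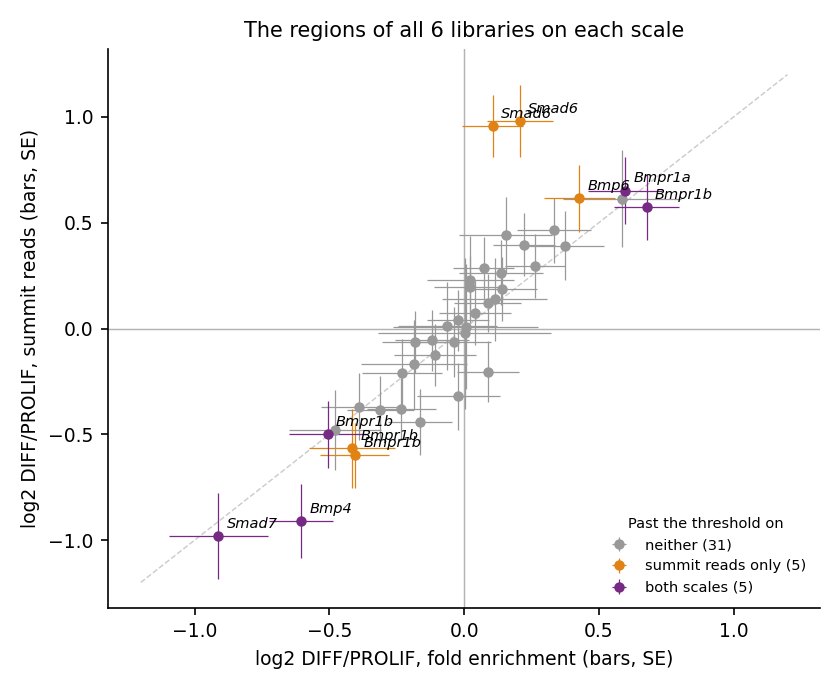
The log2 difference between DIFF and PROLIF in fold enrichment (x axis) and in summit reads (y axis) for the 41 regions, with SE bars; the dashed line marks equal values. Purple regions (5) pass on both scales, orange ones (5) on reads alone and grey ones (31) on neither; the 2 Smad6 regions lie far above the line, at 0.11 and 0.21 on fold enrichment and 0.96 and 0.98 on reads.

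The other genes of the pathway, a list of 28, give the setting. A promoter peak in all 6 libraries was found for 26, and none in any library for the ligands *Bmp5* and *Gdf5*. Their windows held 335 regions. Of these, 11 (3.28%) were DIFF-only and 13 (3.88%) PROLIF-only, beside 3.48% and 1.79% of all merged regions. Of 133 regions fitted on fold enrichment, 5 (3.76%) were higher in DIFF and 9 (6.77%) lower, beside 5.93% and 7.73% of all fitted. The promoters of 7 of these 26 genes (26.9%, near the 26.0% of all such genes) stood at higher percentiles in every DIFF library: the receptor *Acvr2b*, the transducers *Smad1* and *Smad9*, the modulators *Chrd* and *Twsg1*, and the targets *Id1* and *Id4*. *Smad1*, which carries the signal to the nucleus, went from 80.1 to 86.9 in PROLIF to 89.2 to 90.9 in DIFF. *Id1*, a direct target, went from 78.0 to 88.2 to 90.1 to 93.1. The other transducers *Smad4* and *Smad5* and the other targets *Id2* and *Id3* overlapped between the states. The promoter of *Bmp7* alone of the list was higher in every PROLIF library, at 88.1 to 91.3 against 78.7 to 85.2.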

How the data were processed

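ATAC-seq peak lists of 6 libraries were used, 3 PROLIF and 3 DIFF, grouped by the state and replicate number in the labels. According to the methods and labels, adapters were removed by the authors (Cutadapt), reads were trimmed (Trimmomatic, those under 20 bases dropped) and aligned to GRCm38 (mm10) by Bowtie2, duplicates were marked by Picard, and MACS2 called narrow peaks per library with model building off and a false discovery rate of 0.05. Versions and any transposase shift are not given in the sources used here. Peaks were called at each library's own depth, so a deeper library can list weaker peaks. The deposited lists hold a score (10 × −log10 q, cut to whole numbers), a fold, which is the ratio of summit reads to local background after adding 1 to both, and −log10 p and −log10 q.

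Peaks of chromosomes 1 to 19, X and Y were merged across libraries on any overlap (1 bp). Genes and start sites came from GENCODE M21. Taking the caller's Poisson model, the pair of fold and p of a peak was solved for its summit reads and local background. These reads came out whole (within 0.02) for over 99.99% of the peaks solved in each library. The library background is percentile 1 of its local backgrounds. Regions found in all 6 libraries were compared with limma 3.58.1 (R 4.3.3) on quantile-normalised log2 fold enrichment of the strongest peak, with Benjamini-Hochberg adjustment over all of them. Log2 summit reads were normalised and fitted in the same way, over those of these regions whose reads were solved in every library. Values of 1 number per library were compared by two-sided exact permutation. Sequences were read with pysam 0.24.0. Those printed touch no annotated UTR and do not lie on chromosome 18. The limma fit, the state-only counts and the solving for summit reads were tested on simulated data. No interval is given since read totals were not used here.

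The members and gene lists were chosen with earlier results of these data known. Regions named by rule are the main promoter of each gene, the state-only regions with the highest lowest-percentile (up to 5 a state) and the regions past the threshold. Named beside them are the remaining DIFF-only regions, the second region near *Nog*, and those said to be picked afterwards. Alternatives were q of 0.01, equal and shortened lists, windows of 20 and 100 kb, promoters of 1 kb, a cover of 50%, normal scores, the replicate block, leaving out each library and motif windows of 50 bases either side. Summit reads and a fold of at least 3 were added after seeing the data.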

Additional observations from a re-analysis of the deposited data

How the results depend on the processing

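No region past the threshold, and no promoter whose states did not overlap, turned its direction under the alternatives tried for it. Promoter percentile differences of genes whose states overlapped did turn: *Bmp2* from 0.76 to -1.85 with lists of equal length, -5.53 with the strongest 20000 peaks, -0.73 without PROLIF replicate 4 and -0.03 without DIFF replicate 1, *Smad7* from -0.69 to 1.03 without DIFF replicate 1, and *Nog* from 7.98 to -1.76 without PROLIF replicate 4. The difference in occupied regions was 9.33 with lists of equal length, 2.33 with the strongest 20000 peaks (exact permutation p = 0.3) and 27.7 with windows of 100 kb (exact permutation p = 0.2). With the strongest 20000 peaks, 13 regions were found in all 6 libraries, 1 was PROLIF-only, 3 were DIFF-only (none of them among the 9), 0 were higher and 0 lower by limma (2 and 2 at an unadjusted p under 0.05), and 5 of the 9 genes kept a promoter peak in all 6. Regions higher in DIFF numbered 1 with lists of equal length, with windows of 20 kb or with normal scores of the percentile, 4 with windows of 100 kb, and 5 on summit reads. Regions lower in DIFF numbered 0 with normal scores (limma, 3 at an unadjusted p under 0.05) and 5 on summit reads. Windows of 100 kb held 5 PROLIF-only regions, and a cover of 50% left 23 regions in all 6 libraries. Leaving out 1 library gave 9 to 14 DIFF-only and 3 to 4 PROLIF-only regions, 1 to 4 higher and 1 to 3 lower, 41 to 50 in all 6, 9 promoters throughout, and differences of 16.8 to 26.8 occupied regions and 4.16 to 9.82 kb. Higher regions were 1 without PROLIF replicate 1 or DIFF replicate 4 and 4 without PROLIF replicate 2, and lower ones 1 without DIFF replicate 2. The SMAD letters were in 32 regions with 50 bases either side of the summit. The causes were not tested.

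The study describes both states as profiled on the same cultures, but no source says that a replicate number marks a culture. Deviations of log2 fold enrichment correlated at 0.0738 to 0.122 between same-numbered libraries, with 2 of 3 over 0.1, and at -0.0914 to -0.00354 between others, and each library correlated best with its own number, a hint from the data and not from the design. With the replicate block, where a region needed a gained or lost peak in 2 of 3 pairs and none the other way, 22 regions were DIFF-only and 6 PROLIF-only. The blocked limma fit called 2 higher and 2 lower (the region over the *Bmpr1b* internal start had adjusted p = 0.0564), and sign flips over the pairs gave p = 0.25 in an exact test, the smallest possible, for occupied regions and covered length.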
